A study of Rattus norvegicus with 38 samples.

Results

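The superior part of the healthy sinoatrial node (sSAN) was set against the healthy right atrium (RA) under shared codes. The comparison rests on 8 of the 38 libraries of the series, 4 of each region, chosen by their labelled region and health state and paired by the 4-digit code that ends their titles. The node libraries are titled ST_0920, ST_0921, ST_1001 and ST_1002, and the atrial ones RA_0920, RA_0921, RA_1001 and RA_1002. All 8 came from male Sprague-Dawley rats aged 10 weeks. Failing hearts, in which a constriction of the ascending aorta was placed at 1 week of age, gave another 4 libraries each of sSAN and RA under other codes. The healthy libraries carry the same protocol text, and whether healthy rats had a sham operation is not stated there. Libraries of healthy inferior node (iSAN, 4, titled SB), left atrium (LA, 4) and left ventricle (LV, 2) are used only where they place the result. The same holds for those of failing iSAN and failing LA (4 each). Each library was made from total RNA of a tissue piece of about 5 mg, and no label says that a code marks 1 animal. If a group does not hold separate animals, its p-values cover only the spread between libraries, which may be technical.

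The sinoatrial node is the small region at the junction of the superior vena cava and the right atrium in which the heartbeat starts. Its pacemaker cells depolarise spontaneously through inward currents carried by HCN and calcium channels and through calcium release from the sarcoplasmic reticulum. They carry little of the fast sodium current and little of the connexin-based coupling of atrial muscle, and they lie in a dense connective tissue with nerves, fibroblasts and an artery. Atrial muscle next to the node is working myocardium, which contracts and conducts rapidly. The deposited tables give Ensembl gene IDs without names, and 0 of these IDs could be matched to the reference table, so the differences below are given by counts, sizes and a few IDs. Whether pacemaker, nerve, connective tissue or blood cell markers stand behind the region labels was not checked for the same reason, and no role is given to any ID. In tissue of mixed cells, fewer cells of a type and less RNA per cell cannot be told apart.

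Library totals were 22467579 to 27355777 estimated counts in sSAN and 20984417 to 22458030 in RA. The 2 ranges did not overlap (exact two-sided permutation test, p = 0.0286 unpaired, the smallest p that 4 against 4 libraries allow, and 0.125 by pairs). The number of genes at 1 TPM (a level scaled for transcript length and library size) or more was 12110 ± 321 in sSAN and 12280 ± 136 in RA (SD, n = 4 each; exact p = 0.4 unpaired and 0.625 by pairs). The 10 highest genes of a library took 31.0 ± 6.19% of its counts in sSAN and 22.8 ± 0.936% in RA (SD, n = 4 each; exact p = 0.0286 unpaired and 0.125 by pairs, the smallest that 4 pairs allow). Node library ST_0921 had the highest share, 39.3%.

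With the scaling used here, genes higher in the healthy superior node outnumbered those that were lower, and their differences were larger. Of 14108 genes tested, 1971 were higher in sSAN (14% of those tested) and 1496 were lower (10.6%) at an adjusted p under 0.05 (edgeR quasi-likelihood test with the code as a block, Benjamini-Hochberg adjustment). A difference of at least 2-fold was reached by 863 of the higher genes (43.8%) and by 193 of the lower genes (12.9%). At least 4-fold was reached by 376 higher and 8 lower genes. The median log2 difference was 0.88 among higher genes and -0.57 among lower genes, against 0.02 over all genes tested. An unadjusted p under 0.05 was reached by 5577 genes.

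These counts depended on which libraries were used and on the scale. Without the pair of ST_0920 the calls came to 1175 genes (729 higher, 446 lower), and without the pair of ST_0921 to 2348 (1290 higher, 1058 lower). With all libraries, the fit without the block called 3269 genes. In fits without the block that left out 1 library, the counts without RA_0920, RA_0921, RA_1001 and RA_1002 were 2128, 1937, 2160 and 2115. Leaving out ST_0920 or ST_0921 also lowered the count of that fit. Leaving out ST_1001 or ST_1002 raised it, to 3629 and 3404. The split between directions was set by the scaling: on the deposited TPM values as they stand, 920 genes were higher and 5017 lower (limma on log2(TPM + 1)) and the median log2 difference over every gene tested was -0.31. After TMM rescaling of the same values, 1739 were higher and 1467 lower.

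**Figure D1:**
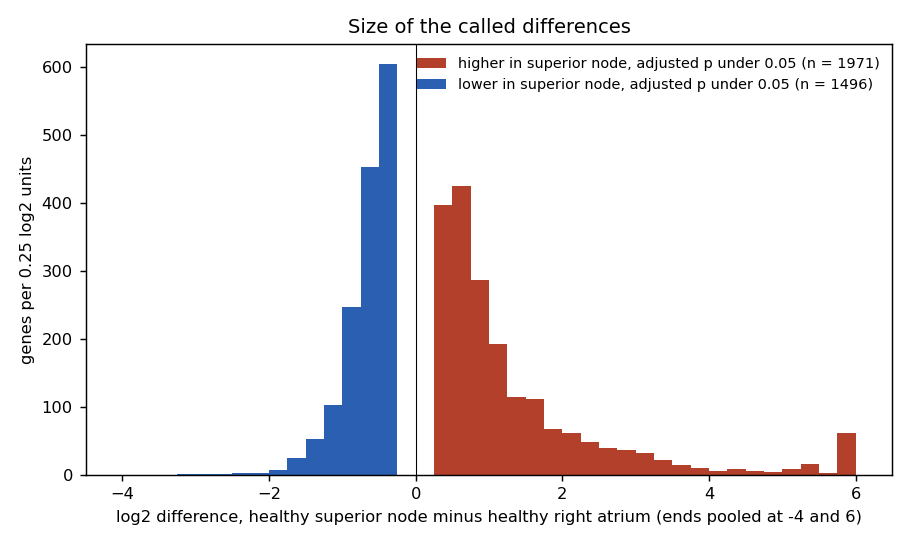
Histogram of the log2 difference between healthy superior node and healthy right atrium for the called genes, in steps of 0.25 log2 units, red for the 1971 genes higher in the node and blue for the 1496 lower ones. The red bars reach far to the right, while nearly all blue bars lie within 2 log2 units of 0.

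The regions lay further apart in some pairs than in others. Of the 1971 higher genes, 1954 were higher in all 4 pairs, and of the 1496 lower genes, 1495 were lower in all 4, where 49.2% of all genes tested had 1 direction in all 4 pairs. The test was blocked on these pairs, so nothing is read from that agreement. Every sSAN library lay above every RA library for 1606 higher genes (81.5%), and every sSAN library lay below every RA library for 1300 lower genes (86.9%), where 29.8% of all genes tested had groups that did not overlap in either direction. The same 8 libraries chose these genes, so nothing is read from those shares either. The medians by pair are differences in log2(CPM + 1), with CPM the counts scaled to library size, and cannot be set against the fitted medians above. Over the higher genes the median was 0.73 in the pair of ST_0920, 0.92 in that of ST_0921, 0.56 in that of ST_1001 and 0.55 in that of ST_1002. Over the lower genes it was -0.55, -0.81, -0.49 and -0.46 in the same order of pairs. The pair of ST_0921 had the greatest distance between regions in both directions.

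The node libraries spread more widely than the atrial ones. On the first principal component of the 8 libraries, which held 69.7% of the variance, ST_0920, ST_0921, ST_1001 and ST_1002 lay at 44.7, 63.7, 15.99 and 16.1, while RA libraries lay between -35.9 and -34.7. ST_1001 and ST_1002 thus lay nearer to the atrium than ST_0920 and ST_0921 did. Across genes the SD of log2 CPM (counts scaled to library size with TMM) within a group had a median of 0.221 in sSAN and 0.128 in RA, and it was larger in sSAN for 76.1% of genes. Without ST_0921 and RA_0921 the medians were 0.184 in sSAN and 0.117 in RA, and the SD was larger in sSAN for 68.6% of genes. No test was run on this difference in spread.

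The called genes filled a larger part of the node's RNA than of the atrium's. Genes called higher took 37.7, 46.7, 37.0 and 32.4% of the TPM in ST_0920, ST_0921, ST_1001 and ST_1002, against 22.3 to 23.5% in RA. Genes called lower took 6.27, 2.51, 6.76 and 7.59% in sSAN in the same order, against 14.6 to 15.1% in RA. These shares describe the genes that the test chose and are no further evidence.

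The level of a gene went with the direction of its call. Among genes with a mean under 1 TPM, 13.1% were called higher and 2.56% lower. Between 1 and 10 TPM the shares were 13.3% higher and 9.53% lower, and between 10 and 100 TPM they were 14.0% and 14.8%. Between 100 and 1000 TPM 21.7% were higher and 10.2% lower, and at 1000 TPM or more 13 of 72 genes were higher and 8 lower. Calls in the lower direction were thus rare among weakly expressed genes, where the median called difference was 1.86 log2 units for higher and -1.09 for lower genes.

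Some genes were near absent from the atrium and clearly present in the node, and the reverse was not found. Of the 24057 genes deposited, 9 had at least 10 counts in every sSAN library and 0 counts in every RA library. With at most 3 counts in every RA library there were 50. With at least 10 counts in every RA library, 0 genes had 0 counts, or at most 3, in every sSAN library. The median level of the 50 genes was 5.29, 5.33, 1.45 and 1.35 CPM in ST_0920, ST_0921, ST_1001 and ST_1002, so that the first 2 libraries were again apart from the last 2. The highest node library was ST_0921 for 32 of the 50 genes, ST_0920 for 11, ST_1002 for 4 and ST_1001 for 3. In libraries that did not choose these genes, 25 of the 50 reached 10 counts in every healthy iSAN library, and 21 kept at least 10 counts in every failing sSAN library with at most 3 in every failing RA library. In every healthy LA library 19 of the 50 had at most 3 counts, and in both healthy LV libraries 35 did. How many of all genes met the same limits was not counted, so nothing about the 50 genes is read from these counts.

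The IDs below were taken by rule, as the 2 called genes in each direction with the largest fitted difference among those whose groups did not overlap and whose log2 CPM averaged 1 or more. The rule was met by 1417 higher and 1268 lower genes. ENSRNOG00000003580 had 1462, 2377, 480 and 255 CPM in ST_0920, ST_0921, ST_1001 and ST_1002, against 0, 0.127, 0 and 0 CPM in RA, where its 0.127 CPM stood for 2.99 estimated counts. Its adjusted p was 1.28e-06 (edgeR), and no fold is given against so few counts. Every node library held it at 255 CPM or more, and no atrial library held more than a trace. In healthy iSAN it spread over 3.82, 1075, 115 and 26.9 CPM in the same order of codes, with SB_0921 the highest, and in failing hearts it stood at 62.0, 1043, 172 and 53.5 CPM in sSAN, against at most 0.0364 CPM in RA.

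ENSRNOG00000012674 had 30.6, 41.4, 10.98 and 16.3 CPM in ST_0920, ST_0921, ST_1001 and ST_1002, against 0 CPM in all 4 RA libraries. The mean over the node libraries was at least 197-fold above a floor of 3 counts per RA library (adjusted p = 0.00032, edgeR). The lowest node library, ST_1001, was 87.0-fold above that floor. The failing RA libraries were also all at 0, while failing sSAN held 17.6, 54.0, 11.9 and 36.1 CPM. Healthy iSAN held 0.841, 21.6, 9.06 and 8.96 CPM in the order of codes, so SB_0920 was far below the other 3 there.

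Among lower genes, ENSRNOG00000009316 had 765, 24.0, 444 and 277 CPM in ST_0920, ST_0921, ST_1001 and ST_1002, against 3093, 2377, 2456 and 1872 CPM in RA. The log2 difference was -3.19 ± 0.82 (SE; adjusted p = 0.0388, edgeR). The groups did not overlap, as the rule required, but ST_0921 was far below the other 3. The call was lost in 12 of 22 alternatives. The adjusted p (edgeR) was 0.0688 without the pair of ST_0920, 0.0824 without that of ST_1001 and 0.0657 without that of ST_1002. Over all alternatives the adjusted p ranged from 0.000155 to 0.109. Its mean was 0.299 CPM in the 4 LA libraries, so among the healthy atria it was a transcript of the right side. In failing hearts it had 199.6 ± 177 CPM in sSAN and 1705 ± 548 CPM in RA (SD, n = 4 each; log2 difference -3.69 ± 0.54, SE, adjusted p = 0.0068, edgeR).

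ENSRNOG00000065711 had 2.52, 0.361, 0.598 and 2.61 CPM in ST_0920, ST_0921, ST_1001 and ST_1002, against 9.31, 7.496, 3.67 and 11.97 CPM in RA. The log2 difference was -2.50 ± 0.35 (SE; adjusted p = 0.0048, edgeR). The pairs of ST_0920 and ST_1002 were the higher ones in both regions, and in LA as well, where the gene had 7.87, 5.92, 2.06 and 9.29 CPM in the order of codes. The call was lost in 1 of 22 alternatives, at an adjusted p of 0.0554 without RA_1002 in the fit without the block; over all alternatives the largest adjusted p was this one.

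The differences recurred in the failing hearts, which share no library with the healthy ones. There 1622 of 14238 genes tested were higher in sSAN (11.4%) and 1216 were lower (8.54%); without the block the calls came to 1179 in all, and without the pairs of sSAN0506, sSAN0507 and sSAN0508 to 1561, 1673 and 1641. Of the 1937 higher genes of healthy hearts that were tested in failing hearts, 88.3% had a positive log2 difference there, and of the 1482 lower genes 89.1% had a negative one. By mean log2(CPM + 1), 88.7% of all 1971 higher genes were higher in failing sSAN than in failing RA. On that measure 88.5% of all 1496 lower genes were lower there. Over all 14108 genes tested in healthy hearts, mean log2(CPM + 1) was higher in failing sSAN than in failing RA for 49.5% and lower for 50.5%. Over the genes tested in both health states, 992 were called higher in both, which is 51.2% of those 1937 healthy calls and 63.5% of 1561 failing calls. Likewise 554 were called lower in both, 37.4% of those 1482 healthy calls and 46.2% of 1198 failing calls. Genes called in opposite directions numbered 11 (higher in healthy sSAN) and 1 (lower). The healthy higher genes had a median log2 difference of 0.86 in healthy and 0.55 in failing hearts, and the lower genes one of -0.57 in healthy and -0.31 in failing hearts. Those medians are smaller in failing hearts for genes that were chosen in healthy ones, so a change of size cannot be read from them.

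**Figure D2:**
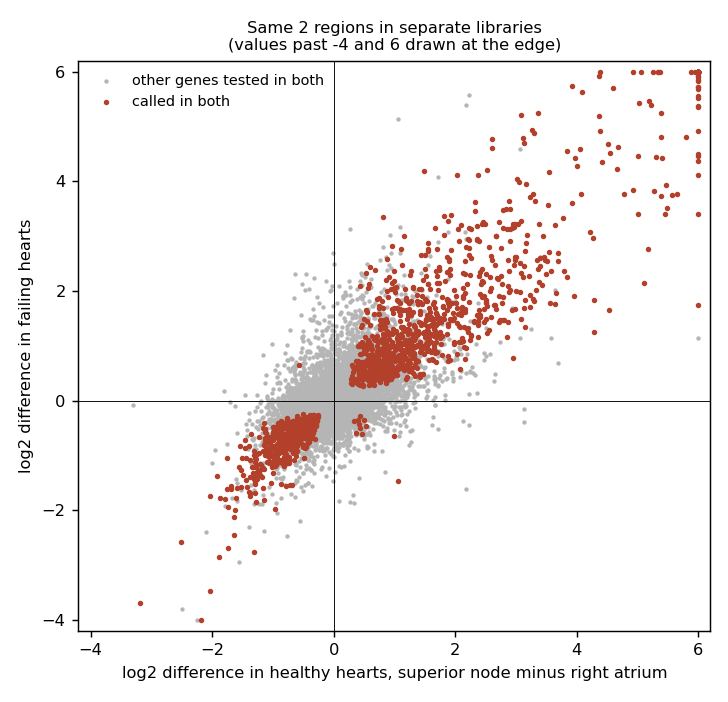
Log2 difference of superior node minus right atrium in healthy hearts (horizontal axis) and in failing hearts (vertical axis), 1 point per gene tested in both, with values beyond -4 and 6 drawn at the edge; red points were called in both. Red points lie in the upper right and lower left, except for the 11 and 1 genes called in opposite directions.

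Genes chosen in failing hearts alone separated the healthy libraries too. For each library the mean log2(CPM + 1) of the genes lower in failing sSAN was taken from the mean of the genes higher there. The score was -0.82, -0.36, -1.55 and -1.29 in healthy sSAN ST_0920, ST_0921, ST_1001 and ST_1002, against -2.48 to -2.37 in healthy RA. All 4 node libraries lay above all 4 atrial ones, with ST_0921 the highest and ST_1001 the lowest of the node. Healthy iSAN lay at -1.75, -0.87, -1.22 and -1.24 in the same order of codes, within the range of sSAN but for SB_0920. Healthy LA lay at -2.18 to -2.10 and the 2 LV libraries at -1.87 and -1.75, so no atrial or ventricular library reached the lowest sSAN value of -1.55. Both LV libraries scored above every atrial one, and the higher of them was level with SB_0920, so the score does not mark the node alone. In every healthy pair most genes kept the direction chosen in failing hearts: 85.3 to 92.8% of the 1622 higher genes were higher, and 74.1 to 92.8% of the 1216 lower genes were lower, with the pair of ST_1001 at the low end of both. Over all genes tested the median difference in log2(CPM + 1) in these pairs lay between -0.043 and -0.005.

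**Figure D3:**
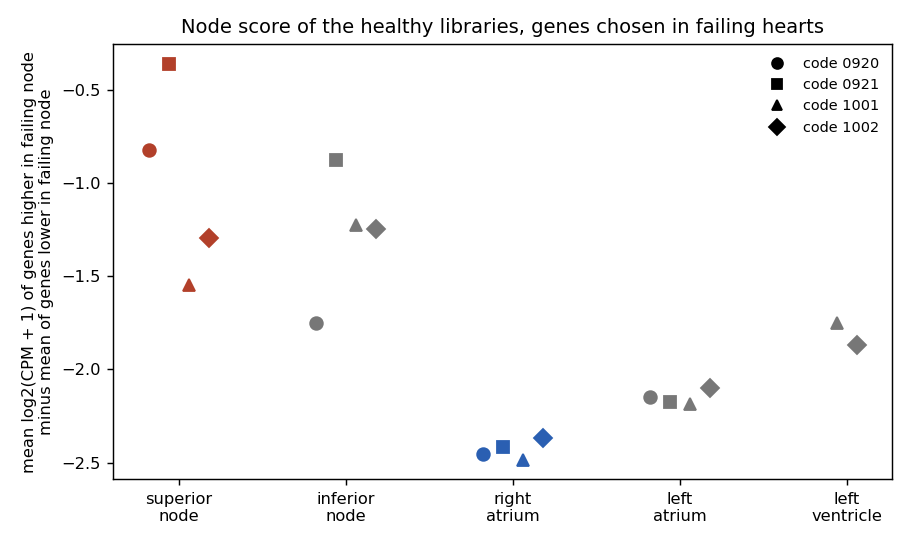
Score of each healthy library (mean log2(CPM + 1) of genes called higher in failing superior node minus that of genes called lower there) by region, with a marker shape for each code; red is superior node and blue right atrium. The 4 superior node libraries spread from -1.55 to -0.36 and all lie above the right atrium, whose 4 libraries lie between -2.48 and -2.37.

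The genes that differed between sSAN and RA mostly differed in the same direction between the other node part and the other atrium. Those libraries did not enter the test, but the healthy ones carry the same codes as the libraries that did. In healthy iSAN against LA, 85.2% of the higher genes were above 0 and 88.3% of the lower genes were below 0, where 46.8% of all genes tested were above 0 and 53.2% below. The median differences in mean log2(CPM + 1) there were 0.37 for higher and -0.25 for lower genes. In failing iSAN against failing LA, which carry other codes, 76.9% of the higher genes were above 0 (49.1% of all genes). There 77.7% of the lower genes were below 0 (50.9% of all genes). Healthy ventricular muscle against healthy LA gave 61.5% of the higher genes above 0 (48.3% of all genes). It gave 71.3% of the lower genes below 0 (51.7% of all genes). Part of the list therefore moved in the same direction in a region that is neither node nor atrium.

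A direct test found few genes between the healthy node parts. Of 14326 genes tested in sSAN against iSAN, 2 were called (0.014%), both lower in sSAN, while 2441 had an unadjusted p under 0.05 and DESeq2 called 672. Without SB_0920 and ST_0920 the calls came to 8, and without SB_1002 and ST_1002 to 4. ENSRNOG00000005023 had 1.26, 0.309, 2.48 and 0.622 CPM in ST_0920, ST_0921, ST_1001 and ST_1002, against 15.2, 4.53, 18.2 and 7.93 CPM in iSAN (log2 difference -3.40 ± 0.21, SE, adjusted p = 0.0061, edgeR). ENSRNOG00000068869 had 0.407, 0.206, 0.342 and 0.498 CPM in sSAN, against 6.66, 1.79, 7.33 and 5.74 CPM in iSAN (log2 difference -3.83 ± 0.28, SE, adjusted p = 0.0092, edgeR). For both genes the groups did not overlap. The mean of ENSRNOG00000005023 was 11.5 CPM in iSAN, 1.17 in sSAN, 2.30 in healthy RA and 1.99 in healthy LA. That of ENSRNOG00000068869 was 5.38 CPM in iSAN, 0.363 in sSAN, 0.335 in healthy RA and 0.540 in healthy LA. Both were thus high in iSAN, rather than low in sSAN alone. The codes did not pair the libraries of these 2 regions throughout. Departures from the region mean correlated at -0.121 for code 0920 and at 0.292 to 0.633 for the other codes. Without the block neither gene was called (adjusted p = 0.28 and 0.0676, edgeR). A call in sSAN against RA and none against iSAN does not show that the node parts are alike.

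The region difference itself was tested for a change with health state in 16 libraries. Of 14761 genes, 11 passed (0.0745%), 7 with a larger and 4 with a smaller sSAN minus RA difference in failing hearts, and 2630 had an unadjusted p under 0.05; DESeq2 called 462, and edgeR without the block called 0. Leaving out the pair of ST_0920, ST_0921, ST_1001 or ST_1002 gave 3, 2, 6 or 1 calls. Leaving out the pair of sSAN0409, sSAN0506 or sSAN0508 gave 6, 19 or 4. Failing and healthy hearts share no code, so a batch that goes with the codes and the health state cannot be told apart. ENSRNOG00000012471 was among the genes with the smaller difference. It had 9.73, 12.4, 6.32 and 10.4 CPM in healthy sSAN, against 0.0843, 0.169, 0.169 and 0.0831 CPM in healthy RA. In failing hearts it had 70.3, 28.2, 119 and 112 CPM in sSAN0409, sSAN0506, sSAN0507 and sSAN0508, against 24.7, 5.34, 33.5 and 42.1 CPM in RA. Healthy RA held only 2.07 to 4.15 estimated counts per library, so no fold is given for healthy hearts. The interaction passed in edgeR (adjusted p = 0.0031) but was -0.31 on log2(TPM + 1) and -0.52 on TMM-rescaled TPM in limma, with adjusted p of 0.275 and 0.211 there; over all alternatives the adjusted p ranged from 3.17e-13 to 0.275. Failing RA lay above healthy RA in every library.

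The other 3 genes taken by rule differed in the groups that held them. ENSRNOG00000008015 had 628, 279, 192 and 381 CPM in failing sSAN, against 168, 63.8, 71.0 and 60.8 CPM in failing RA, while healthy hearts held 0.746 to 4.70 CPM in sSAN and 1.45 to 4.76 CPM in RA (interaction 2.49 ± 0.30, SE, adjusted p = 0.0313, edgeR). Failing sSAN thus lay above failing RA in every library, and the healthy groups overlapped. ENSRNOG00000010263 had 1.45 to 5.05 CPM in failing sSAN and 0.278 to 0.727 CPM in failing RA, against 4.07 to 8.25 CPM in healthy sSAN and 4.28 to 11.01 CPM in healthy RA (interaction 2.62 ± 0.34, SE, adjusted p = 0.0313, edgeR). ENSRNOG00000070982 had 2.85 to 21.7 CPM in failing sSAN and 27.6 to 137 CPM in failing RA, against 0.037, 0, 24.4 and 14.6 CPM in healthy sSAN and at most 0.0421 CPM in healthy RA (adjusted p = 0.0107, edgeR). Only 2 of the 4 healthy node libraries held it above a trace, so no fold is given.

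Called genes of healthy hearts differed in length, which the test did not use. Relative gene length, read from the ratio of the deposited counts to TPM and set to 1 at the median of the genes tested, had a median of 0.825 among higher genes (quartiles 0.524 and 1.30) and of 1.51 among lower genes (quartiles 1.05 and 2.20). Genes were cut into 5 equal groups by length. In the group of the shortest genes 19.5% were called higher and 3.47% lower, and in that of the longest 10.1% were higher and 22.4% lower. The median log2 difference of all genes was 0.15 in the group of shortest and -0.13 in that of longest genes. In failing hearts the called genes had medians of 0.989 (higher) and 0.99 (lower), and the median log2 difference stood at -0.04 and 0.00 in the same groups. Between healthy sSAN and iSAN it stood at 0.10 and -0.10. With a trend on length removed from each library, 2963 genes were called in healthy hearts (1778 higher and 1185 lower), of which 2647 had been called in the same direction before. The part of the length trend in the calls was not tested beyond that fit.

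**Figure D4:**
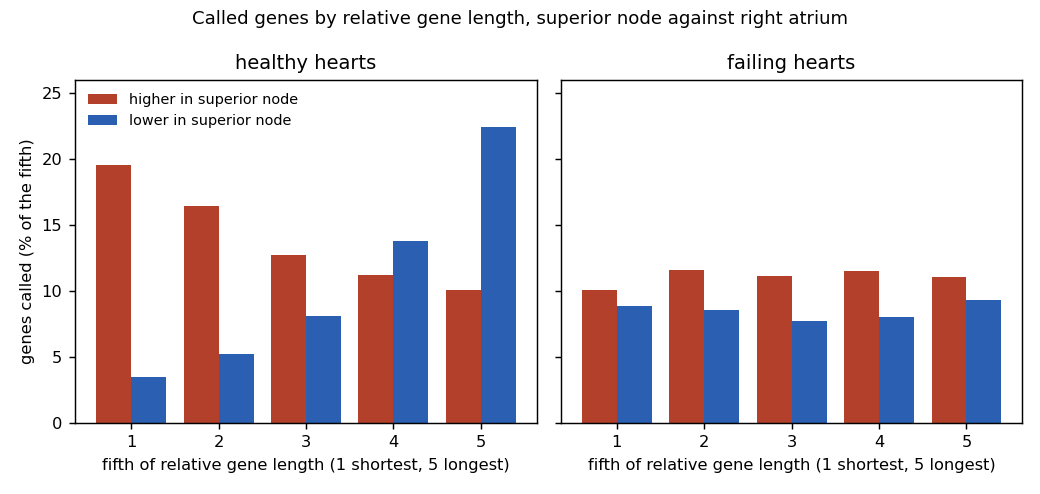
Percentage of genes called higher (red) and lower (blue) in superior node in 5 equal groups by relative gene length, shortest at the left, in healthy hearts (left panel) and in failing hearts (right panel), over the genes tested in healthy hearts. In healthy hearts red is at 19.5% in the shortest and 10.1% in the longest group and blue at 3.47% and 22.4%, while the bars of failing hearts stay between 7.73 and 11.6%.

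Transcript usage also differed between the regions. A test of whether the transcripts of a gene differ unequally between sSAN and RA (limma voom and diffSplice with Simes p-values), chosen after the data had been seen, called 157 of 6073 genes with 2 or more transcripts tested in healthy hearts (2.59%) and 77 of 6256 in failing hearts (1.23%). Without the block it called 89 in healthy and 15 in failing hearts. Without the pair of ST_0920, ST_0921, ST_1001 or ST_1002 it called 34, 16, 56 or 59 in healthy hearts. Without the pair of sSAN0409, sSAN0506, sSAN0507 or sSAN0508 it called 13, 28, 0 or 19 in failing hearts. Each such fit has fewer libraries, and no other cause of the lower counts was tested. Of the 157 genes, 32 were also called higher in level, 37 were called lower and 88 were not called for level, where 14% of all genes tested for level were higher and 10.6% lower. Of 250 transcripts with an adjusted p under 0.05 in healthy hearts that were tested in failing hearts, 74.8% had the same sign there. The share over all transcripts was not counted, and the signs of transcripts of 1 gene are tied, so nothing is read from it. Of the 155 genes called in healthy hearts and tested in failing ones, 22 were called in both health states.

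ENSRNOG00000001182, chosen after its values were seen, shows such a case. Its level as a gene differed by 0.01 ± 0.17 on the log2 scale (SE, adjusted p = 0.961, edgeR). Transcript ENSRNOT00000001564.5 made up 71.9, 82.9, 51.9 and 50.4% of the gene's TPM in ST_0920, ST_0921, ST_1001 and ST_1002, against 12.2, 13.3, 10.4 and 12.1% in RA. Transcript ENSRNOT00000086272.2 was listed at 0, 1.76, 0 and 0 TPM in sSAN, against 46.2, 67.0, 61.7 and 67.1 TPM in RA. That transcript by itself did not pass the test (adjusted p = 0.113), while the first did (adjusted p = 0.000693). A further transcript, ENSRNOT00000098355.1, made up 28.1, 14.8, 47.8 and 49.3% in sSAN, against 42.3, 33.1, 34.7 and 34.9% in RA, where the regions overlapped. Its fitted log2 difference relative to the gene was -2.54 (adjusted p = 0.00114, diffSplice). Its share, however, was higher in sSAN than in RA in the pairs of ST_1001 and ST_1002, and lower in those of ST_0920 and ST_0921. In ST_1001 and ST_1002 this transcript was almost as high as the first one. For the gene as a whole the adjusted p was 0.0007. In failing hearts the first transcript made up 46.7, 63.0, 35.6 and 55.2% in sSAN, against 23.1, 21.4, 16.7 and 22.3% in RA (gene-level adjusted p = 0.00502). ENSRNOT00000098355.1 made up 52.9, 36.3, 50.1 and 43.2% in failing sSAN, against 76.2, 77.7, 72.9 and 55.6% in failing RA, and was above the first transcript in sSAN0409 and sSAN0507. The second was listed at 0, 0, 7.65 and 14.96 TPM in failing RA, far under healthy RA. In healthy LA it was listed at 9.96, 27.3, 7.11 and 50.3 TPM. Values of transcripts of 1 gene are estimates from shared reads, so they are less certain than the gene's total.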

How the data were processed

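The authors deposited estimated counts and TPM values per gene and per transcript, 38 libraries each. Per the submitters' processing notes, the tools were Trimmomatic 0.39 (a read trimmer) and kallisto 0.48.0 (a pseudoaligner). The annotation release and build were not given in the sources used here. Deposited counts over TPM equalled a gene term times a library term (within 5.8e-13 in the natural log over 13474 genes), so the estimated counts already carry a length scaling. Estimated counts were rounded, filtered (filterByExpr, minimum 10, total 15), scaled with TMM and tested in edgeR 4.0.16 (R 4.3.3) by its quasi-likelihood test with robust dispersions, each fit on its own groups with the code as a block, at a Benjamini-Hochberg adjusted p of 0.05. Standard errors derive from the test statistic. Alternatives were DESeq2 1.42.0 and its size factors, no filter, limma 3.58.1 on log2(TPM + 1), 10 abundant genes removed, 1 fit of all 38 libraries, no block, and left-out libraries or pairs. Added after seeing the data were TMM-rescaled TPM in 3 comparisons, removal of a loess trend on length (span 0.3), and the transcript test. The steps were run on simulated counts with the same spread for every gene and no effect of the code. These differ from the data in both, so nothing about the calls is read from that run.

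Pairing by code was checked by correlating, over genes, how far the 2 libraries of a code departed from the mean of their region. It was 0.215 to 0.272 for healthy sSAN and RA and 0.457 to 0.483 in failing hearts, above 0.1 in every pair, so the codes pair these libraries, by their shared codes and from the data. For healthy sSAN and iSAN it was -0.121 for code 0920, 0.633 for 0921, 0.292 for 1001 and 0.318 for 1002. Code 0920 thus fell under 0.1, and only for 0921 did each library correlate best with the other of its code. The data therefore do not bear out the pairing of sSAN and iSAN for every code, and their main fit is blocked on the code all the same. Over 55 pairs of libraries within a group, libraries differed by more than counting alone gives: squared differences had medians of 4.77 to 305 times the counting variance. Differences of single values used exact two-sided permutation tests.

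Transcripts were tied to genes by exact sums of TPM over neighbouring rows, which linked 20801 of 21001 genes above 0 to 1 run; 200 were left out. The gene lists, marker lists, summed list levels and the choice of named genes by symbol could not be applied without gene names. The regions, lists and comparisons were chosen with earlier results of these data known.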

Additional observations from a re-analysis of the deposited data

Results flagged for a closer look

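The highest or lowest of 4 libraries stood apart from the others (Dixon's test at 95%) in 10 of 66 sets of values. In 3 of the 10 the other 3 libraries were all at 0, so that any trace had to stand apart, which leaves 7 of 63 sets. Chance gives about 1 in 20 for independent sets of normally distributed values. These sets share libraries and genes, and CPM values can be strongly skewed, so the 7 are not weighed against that rate. ENSRNOG00000003580 had 1075 CPM in healthy iSAN SB_0921, against 3.82 to 115 in the other 3, and 1043 CPM in failing sSAN0506, against 53.5 to 172 in the other 3. In RA the same gene was above 0 in 1 library of each health state, at 0.0364 CPM in failing RA_0506 and 0.127 CPM in healthy RA_0921. ENSRNOG00000065711 was low in failing RA_0409 at 0.755 CPM, against 3.12 to 3.45 in the other 3. ENSRNOG00000068869 was low in failing RA_0508 at 0.152 CPM, against 0.359 to 0.39. ENSRNOG00000008015 was high in failing RA_0409 at 168 CPM, against 60.8 to 71.0, and low in healthy iSAN SB_0921 at 2.40 CPM, against 4.07 to 4.25. ENSRNOG00000070982 had 3.64 CPM in healthy iSAN SB_1002, against at most 0.425, and 0.0421 CPM in healthy RA_0920, against 0 in the other 3.

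The difference between sSAN and RA changed with health state, by an interaction test in edgeR, for 4 named genes. The interaction was 2.49 log2 units for ENSRNOG00000008015 and 2.62 for ENSRNOG00000010263. The fitted value was -4.43 for ENSRNOG00000012471 and -11.68 for ENSRNOG00000070982. Neither is a measured size, since healthy RA held 2.07 to 4.15 estimated counts of the first and at most a trace of the second. Over the alternatives they ran from -4.81 to -0.31 and from -13.70 to -3.95. The number of alternatives in which the call was lost was 6, 9, 3 and 5 of 15 in that order of genes, each time including the fit without the block.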

How the results depend on the processing

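For healthy sSAN against RA, no replicate block gave 3269 calls (1995 higher, 1274 lower), 2935 of them shared with the blocked fit in the same direction. DESeq2 gave 3813, its size factors 3538, no filter 3349, removal of the 10 most abundant genes 3485 and 1 fit of 38 libraries 3397. limma gave 5937 calls on log2(TPM + 1) (920 higher, 5017 lower) and 5854 on log2(TPM + 0.1) (924 higher, 4930 lower). Leaving out a pair or a library gave 1175 to 3629 calls, 729 to 2139 higher and 446 to 1490 lower. Each such fit has fewer libraries, yet without ST_1001 or ST_1002 the fit without the block called more than 3269 genes. The cause of these shifts was not tested.

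For sSAN against iSAN the calls were 1 without the replicate block (0 shared), 672 with DESeq2, 65 without a filter, 5352 with limma on log2(TPM + 1), 1 on TMM-rescaled TPM and 3 to 8 without a pair. For failing sSAN against RA they were 1179 without the replicate block and 1561 to 2161 without a pair. For the change with health state they were 0 without the replicate block, 462 with DESeq2, 59 with limma on log2(TPM + 1), 2 on TMM-rescaled TPM and 1 to 19 without a pair. Transcript usage gave 89 calls in healthy and 15 in failing hearts without the replicate block, and 16 to 59 and 0 to 28 without a pair. Why the tools differ was not tested.

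No direction of a named gene reversed in any alternative. The share of higher genes with the same sign in failing hearts was 88.1 to 96.9% over 7 alternatives, and that of lower genes 69.1 to 91.7%, with limma on unscaled TPM at the far end of the first and the low end of the second. The 4 libraries a group limit every call, and counting depth limits genes under 1 TPM, whose estimated counts are few. Gene names, and with them a check of the tissue, were not used here.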
